A study of Mus musculus with 40 samples.

Results

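Chemokines are small secreted proteins that bind G protein-coupled receptors on other cells and direct where those cells move. The 8 genes described here encode chemokines that T cells can make: Xcl1, Ccl1, Ccl3, Ccl4, Ccl5, Ccl20, Ccl22 and Cxcl10. They were taken as a named list, which is 8 of 18194 genes measured in a sorted T cell experiment and 8 of 17097 genes measured in a semaphorin-4a experiment. Each had 1 probe set annotated to it alone on both Affymetrix mouse array types. The Entrez identifiers are 16963 for Xcl1, 20290 for Ccl1, 20302 for Ccl3, 20303 for Ccl4, 20304 for Ccl5, 20297 for Ccl20, 20299 for Ccl22 and 15945 for Cxcl10.

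The sorted T cell experiment had 3 arrays of activated regulatory T cells (Treg). A further 3 held resting Treg and 2 held resting conventional CD4 T cells (Tconv). All cells came from Foxp3GFP reporter mice on C57Bl/6. Treg were sorted as CD4+ CD45RBlow GFP+ and Tconv as CD4+ CD45RBhi GFP-. They were kept for 48 h in RPMI with 10% serum, with antibodies to CD3 and CD28 for activated Treg and unstimulated for both resting groups. Their source is labelled as bone marrow. The semaphorin-4a experiment had 8 arrays in each of 4 groups, which were KO Treg on a Sema4a-Ig fusion protein, KO Treg on control IgG1, WT Treg on Sema4a-Ig and WT Treg on IgG1. KO cells were Nrp fl/fl x Foxp3-YFP-iCre, so that Cre acts in cells that express Foxp3, and WT cells carried the Foxp3-YFPiCre allele alone. Both were CD4+ CD45RBlo YFP+ cells of spleen and peripheral lymph nodes. All 4 groups received human IL-2 at 100 U/mL, an antibody to CD28 in solution at 2 µg/mL and a plate-bound antibody to CD3 at 1 µg/mL, with the fusion protein or IgG1 immobilised at 10 µg/mL. Every cell in that experiment was therefore stimulated. For WT on Sema4a-Ig, replicate 2, the genotype label reads floxed against a title of WT, and the title was followed.

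All values are log2 signals per probe set. In the semaphorin-4a experiment the mean of each Sema4a-Ig and IgG1 pair was the same for all 16 pairs at every probe set, to within 6.0e-05. Differences between pairs, and between genotypes on 1 treatment, had been removed before deposit, so the results rest on 16 pair differences, Sema4a-Ig minus IgG1. For the same reason the Nrp1 signal could not check the genotype labels. The Sema4a-Ig and IgG1 levels given below for that experiment mirror each other around a shared mean, and their ranges are not independent. Foxp3 averaged 10.81 in activated Treg and 10.44 in resting Treg, against 4.0 in Tconv. In the semaphorin-4a experiment Foxp3 averaged 3.48 to 3.61 in the 4 groups, under the highest of 23 nonspecific control probe sets (3.95), while Ikzf2 and Ctla4, which Treg also express, averaged 10.96 to 11.25. Whether replicates came from separate animals or cultures is not labelled, and the p-values therefore cover the spread between these arrays, which may be technical. In bulk RNA, fewer cells of a type and less RNA per cell cannot be told apart.

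The receptors fix what each ligand is known for. Xcl1 binds Xcr1 on cross-presenting dendritic cells, Ccl1 binds Ccr8, and Ccl3, Ccl4 and Ccl5 are inflammatory chemokines, with Ccr1 and Ccr3 among the receptors of some of them. Ccl20 binds Ccr6, Ccl22 binds Ccr4, and Cxcl10 is an interferon-induced ligand of Cxcr3. T cell receptor signalling reaches many chemokine genes through NFAT, NF-kappaB and AP-1, transcription factors that bind their promoters.

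Promoter windows were read from RefSeq for assembly GRCm38.p6, as the 250 bases before the annotated start, and 6 of the 8 genes matched. Those of Xcl1, Ccl1, Ccl3 and Ccl20 are shown because these genes fell on Sema4a-Ig in WT Treg, and that of Cxcl10 because it did not and holds other motifs. Xcl1 is chr1:164935523-164935772 on the minus strand, Ccl1 is chr11:82179813-82180062 on the minus strand, Ccl3 is chr11:83649379-83649628 on the minus strand, Ccl20 is chr1:83116516-83116765 on the plus strand and Cxcl10 is chr5:92348890-92349139 on the minus strand. Each is written 5′ to 3′ along its gene's strand, and capitals mark a match on either strand to any motif searched.
Xcl1: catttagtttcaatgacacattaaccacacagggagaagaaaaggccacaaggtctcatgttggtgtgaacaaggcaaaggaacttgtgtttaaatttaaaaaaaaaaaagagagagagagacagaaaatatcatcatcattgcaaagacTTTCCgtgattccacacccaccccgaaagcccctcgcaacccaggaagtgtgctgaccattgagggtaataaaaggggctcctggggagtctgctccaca
Ccl1: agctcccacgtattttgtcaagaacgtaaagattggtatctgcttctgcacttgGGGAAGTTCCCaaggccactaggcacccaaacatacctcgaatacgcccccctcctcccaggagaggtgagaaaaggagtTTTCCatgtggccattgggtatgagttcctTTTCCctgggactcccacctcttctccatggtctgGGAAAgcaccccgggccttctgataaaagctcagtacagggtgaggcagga
Ccl3: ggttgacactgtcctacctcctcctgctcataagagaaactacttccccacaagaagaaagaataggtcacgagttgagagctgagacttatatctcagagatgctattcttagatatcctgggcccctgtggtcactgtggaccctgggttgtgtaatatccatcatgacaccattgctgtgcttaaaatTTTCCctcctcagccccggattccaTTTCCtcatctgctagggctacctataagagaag
Ccl20: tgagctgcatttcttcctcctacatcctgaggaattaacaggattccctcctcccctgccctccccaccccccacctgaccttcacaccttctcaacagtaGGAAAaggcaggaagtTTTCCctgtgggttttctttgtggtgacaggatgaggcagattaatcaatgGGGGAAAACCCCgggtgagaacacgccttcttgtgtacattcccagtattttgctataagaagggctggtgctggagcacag
Cxcl10: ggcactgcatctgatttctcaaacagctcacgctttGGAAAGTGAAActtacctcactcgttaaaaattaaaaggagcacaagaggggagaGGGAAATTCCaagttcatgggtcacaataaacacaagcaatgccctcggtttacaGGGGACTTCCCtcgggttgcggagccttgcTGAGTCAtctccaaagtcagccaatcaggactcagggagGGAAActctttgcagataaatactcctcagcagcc

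The motifs searched were the NFAT core GGAAA, a kappaB form of GGG and CC with any 5 bases between, AP-1 as TGANTCA, CRE as TGACGTCA, an interferon-stimulated response element of GAAA and GAAA with any 2 bases between, GAS as TTCNNNGAA and TATAAA. The NFAT core occurred 1 time in the Xcl1 window (positions -100 to -96 from the start), 2 times in Ccl3, and 3 times each in Ccl1, Ccl20 and Cxcl10. It is a common run of letters, present in 55.6% of 27025 windows of the same length. The Ccl22 window had no NFAT core and 2 kappaB matches. The kappaB form, present in 45.4% of windows, also occurred in Ccl1, Ccl20 and Cxcl10. Overlapping matches on both strands merge into 1 capital run in Ccl1, in Ccl20 and at -104 to -94 in Cxcl10. In Ccl20 and Cxcl10 the kappaB form overlaps an NFAT core. AP-1 (6.87% of windows) and the interferon element (3.04%) occurred in Cxcl10 only among the 6, and there the interferon element overlaps an NFAT core. CRE (1.62%), GAS (7.18%) and TATAAA (13.0%) were found in none of the 6. A match describes the letters and not a bound site.

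In the sorted T cell experiment Ccl5 and Cxcl10 set Treg apart from Tconv, and no ligand gene passed the test between activated and resting Treg. Ccl5, which recruits T cells and myeloid cells, had signals of 9.92, 9.47 and 10.17 in activated Treg, 9.21, 9.82 and 11.40 in resting Treg, and 6.69 and 6.35 in Tconv. Every Treg array lay above both Tconv arrays. Ccl5 was higher in resting Treg than in Tconv by 3.62 ± 0.56 (SE) on the log2 scale, 12.3-fold, with an adjusted p of 0.00806 in limma's test, and in activated Treg than in Tconv by 3.33 ± 0.56 (adjusted p = 0.00766). Cxcl10, the Cxcr3 ligand, had signals of 5.37, 5.86 and 5.42 in activated Treg, 5.94, 6.00 and 6.99 in resting Treg, and 4.38 and 4.25 in Tconv. Its 3 groups did not overlap, with resting Treg highest. The rise over Tconv was 1.99 ± 0.32 in resting Treg (adjusted p = 0.0103) and 1.23 ± 0.32 in activated Treg (adjusted p = 0.0495). Both comparisons share the Tconv arrays. In both, Treg are CD45RBlow and Tconv are CD45RBhi cells, so Treg identity and CD45RB level cannot be told apart.

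Thus 2 of 8 ligand genes were called higher in resting Treg than in Tconv, where 3.86% of all genes were, and the same 2 of 8 were called higher in activated Treg than in Tconv, where 5.93% of all genes were. The median log2 difference over the 8 was -0.10 for resting Treg minus Tconv (all genes 0.0073) and 0.17 for activated Treg minus Tconv (all genes 0.017). Without either Tconv array neither gene was called in either comparison. The Tconv arm then has 1 array, which is assumed to vary like the Treg groups. For resting Treg minus Tconv the differences were then 3.79 or 3.45 for Ccl5 (adjusted p 0.0780 or 0.0906) and 2.06 or 1.93 for Cxcl10 (adjusted p 0.102 or 0.105), so the sizes stayed close to those over both arrays. The call of Cxcl10 in activated Treg was also lost without any 1 of the 3 activated arrays (adjusted p 0.0642 to 0.149) and without resting Treg replicate 2 (adjusted p = 0.0597).

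**Figure D1:**
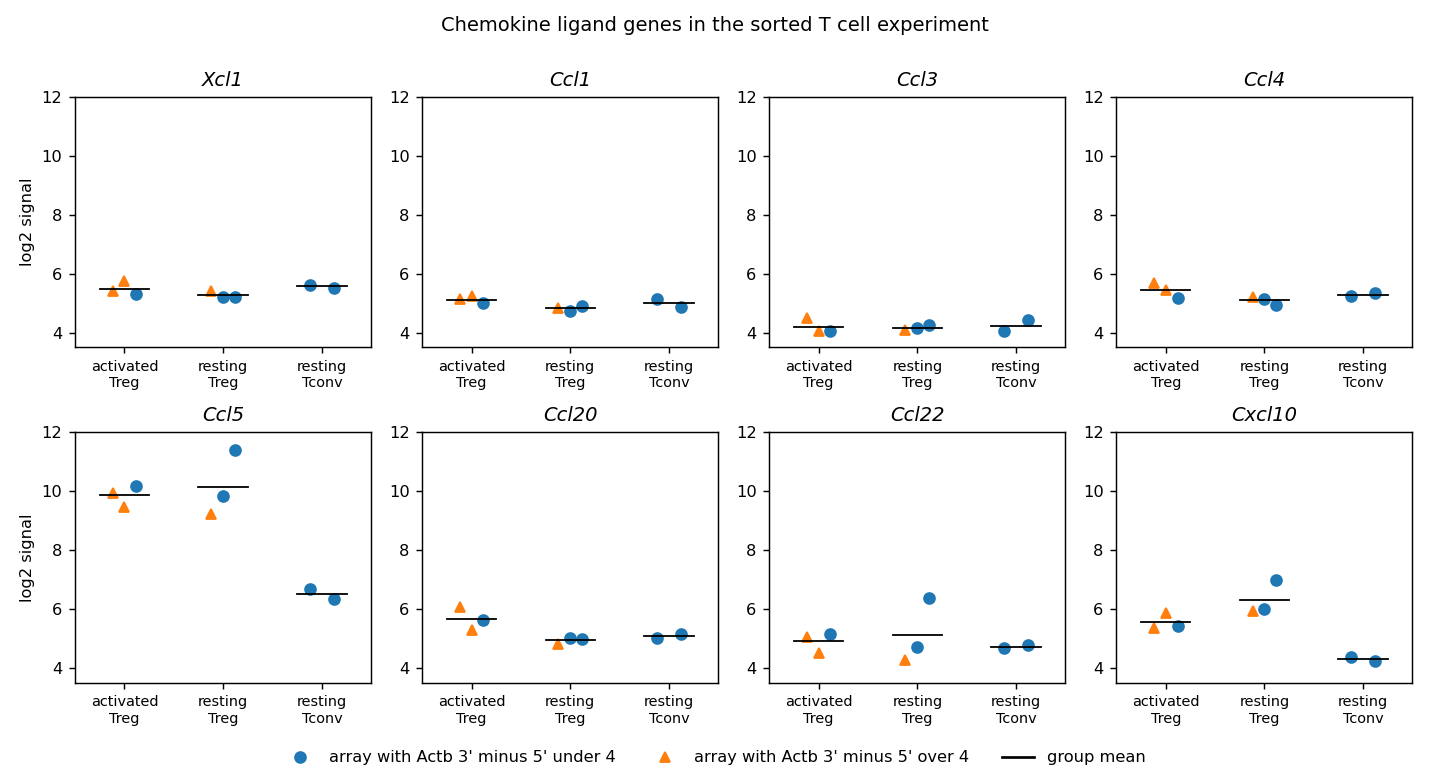
Log2 signal of each ligand gene in the 8 sorted T cell arrays, with activated Treg (3), resting Treg (3) and resting Tconv (2) from left to right and a line at each group mean. Blue circles are arrays with an Actb 3' minus 5' signal under 4 and orange triangles those over 4, and the Treg arrays of Ccl5 (9.21 to 11.40) and Cxcl10 (5.37 to 6.99) all lie above Tconv.

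Between activated and resting Treg, 0 of 8 ligand genes were called, where 0.742% of all genes were, and 2 of the 8 (Ccl20 and Cxcl10) had an unadjusted p under 0.05, where 11.5% of all genes did. Ccl20, which draws Ccr6-bearing cells, had signals of 6.08, 5.29 and 5.64 in activated Treg, 4.82, 5.02 and 4.97 in resting Treg, and 5.0 and 5.14 in Tconv. All 3 activated arrays were above every other array. Its difference, activated minus resting Treg, was 0.73 ± 0.21 (adjusted p = 0.185), and activated Treg minus Tconv gave 0.60 ± 0.23 (adjusted p = 0.173). Cxcl10 had the opposite order, with all activated arrays under all resting Treg arrays (difference -0.76 ± 0.29, adjusted p = 0.346). Ccl1, the Ccr8 ligand, had signals of 5.13, 5.22 and 4.99 in activated Treg, 4.84, 4.72 and 4.90 in resting Treg, and 5.14 and 4.87 in Tconv. Activated and resting Treg did not overlap for Ccl1 either (difference 0.29 ± 0.15, adjusted p = 0.525). In total, 3 of the 8 genes had no overlap between activated and resting Treg, where 13.0% of all genes had none. All 3 were under the median gene in mean level.

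The other ligand genes overlapped between activated and resting Treg. Xcl1 had 5.41, 5.75 and 5.31 in activated Treg, 5.41, 5.21 and 5.22 in resting Treg, and 5.61 and 5.53 in Tconv. Ccl3 had 4.50, 4.05 and 4.06 in activated Treg, 4.08, 4.17 and 4.25 in resting Treg, and 4.04 and 4.42 in Tconv. Ccl4 had 5.68, 5.45 and 5.18 in activated Treg, 5.21, 5.15 and 4.93 in resting Treg, and 5.23 and 5.33 in Tconv. For these 3 genes the group means differed by at most 0.34, and the Ccl3 signals were close to the highest Trpn control probe set (mean 4.02). For Xcl1 and Ccl4 both Tconv arrays lay above all resting Treg arrays, so that 4 of the 8 genes, with Ccl5 and Cxcl10 in the other direction, did not overlap between resting Treg and Tconv, where 42.0% of all genes did not. Ccl22, the Ccr4 ligand, had 5.04, 4.52 and 5.15 in activated Treg, 4.26, 4.71 and 6.38 in resting Treg, and 4.67 and 4.79 in Tconv. Its spread in resting Treg came from replicate 3. Ccl5 overlapped between the Treg groups too (difference -0.29 ± 0.50).

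Resting Treg replicate 3 was the highest of the 8 arrays for Ccl5, Ccl22 and Cxcl10, and it also had the highest mean over 9 MHC class II and dendritic cell markers. That mean was 5.99 to 6.62 in activated Treg, 5.83 to 7.23 in resting Treg and 5.30 to 5.33 in Tconv. Of the 9 markers 8 were higher in resting Treg than in Tconv and none was called. Without replicate 3 the difference between resting Treg and Tconv was 2.99 for Ccl5 (adjusted p = 0.00129) and 1.66 for Cxcl10 (adjusted p = 0.00482), so both calls stood without this array. For activated minus resting Treg, leaving it out turned Ccl5 to 0.34 and Ccl22 to 0.42, neither of which was called. Myeloid markers were highest in activated Treg replicate 1, with a mean over 16 markers of 7.05 there, against 5.17 to 5.89 in resting Treg and 5.11 to 5.18 in Tconv. The Actb 3' minus 5' signal, a measure of RNA integrity, was 5.87, 6.17 and 2.31 in activated Treg, 5.90, 2.5 and 2.67 in resting Treg, and 1.24 and 1.54 in Tconv. With this class as a block Ccl5 and Cxcl10 were still called in resting Treg against Tconv, and Ccl5 but not Cxcl10 (adjusted p = 0.0767) in activated Treg against Tconv. The arrays under 4 hold only 1 of activated Treg. Over them alone the differences from Tconv were 3.65 for Ccl5 (adjusted p = 0.0667) and 1.10 for Cxcl10 (adjusted p = 0.255), neither called with 1 array in that arm.

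Of 8 measured receptor genes of these ligands, 5 were called higher in activated Treg than in Tconv. Among them Ccr8, which binds Ccl1, was higher by 1.73 ± 0.35 (adjusted p = 0.0182), Ccr4 by 1.62, Ccr1 by 1.34, Ccr6 by 4.01 and Cxcr3 by 4.21. Ccr8 and Ccr1 averaged 3.73 each in Tconv, under the highest Trpn control (4.02), so these 2 differences may be lower bounds. Ccr6 (3.36 ± 0.27) and Cxcr3 (4.66 ± 0.50) were the 2 called higher in resting Treg than in Tconv. Cxcr3 and Cxcl10, a receptor and its ligand, were thus both higher in CD45RBlow Treg than in CD45RBhi Tconv. Between activated and resting Treg none of the 8 receptors was called, and the Ccr8 difference was 1.48 ± 0.31 (adjusted p = 0.0888), with resting Treg (3.97) also under that control.

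Stimulation was checked on genes known to respond to it. Of 23 measured genes induced by the T cell receptor, 7 were called higher in activated than in resting Treg and none lower, among them the transcription factor genes Egr3 (5.93), Egr2 (4.95) and Irf4 (3.73) and the costimulatory receptor gene Tnfrsf9 (2.90). Of 27 other chemokine ligands 1 was called, Cxcl2 (1.69 ± 0.27, adjusted p = 0.0402), a neutrophil attractant. Cxcl2 (1.89) and Cxcl3 (2.15) were called higher in activated Treg than in Tconv, and Cxcl3 (1.90) in resting Treg than in Tconv. In Tconv Cxcl2 (3.90) and Cxcl3 (3.47) averaged under the highest Trpn control, so these differences may be lower bounds. Myeloid cells can make both, and the part of such cells in these results was not tested.

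On Sema4a-Ig, no ligand gene was called in KO Treg and 5 of the 8 fell in WT Treg. In KO Treg 0% of all 17097 genes were called and 10.5% had an unadjusted p under 0.05, among them 4 of the 8 ligand genes (Xcl1, Ccl1, Ccl3 and Ccl4), all lower. In WT Treg 2.88% of all genes were called lower, and 498 of the 17097 were called higher. The 5 were Xcl1, Ccl3, Ccl4, Ccl1 and Ccl20, and none was called higher. The median difference over the 8 genes was -0.27 in KO Treg and -0.51 in WT Treg, with all-gene medians of -0.016 in KO Treg and -0.014 in WT Treg. Of all 17097 genes, 9401 had a difference below 0 in KO Treg and 9217 in WT Treg.

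Xcl1 was lower on Sema4a-Ig in 8 of 8 pairs of both genotypes. Its pair differences ran from -1.55 to -0.066 with a median of -0.61 in KO Treg, and from -1.77 to -0.11 with a median of -0.83 in WT Treg. The 2 genotypes overlapped over most of their range. The mean difference was -0.66 ± 0.17 in KO Treg (adjusted p = 0.376) and -0.93 ± 0.17 in WT Treg (adjusted p = 0.00326), which for WT Treg is 1.91-fold lower on Sema4a-Ig. Being lower in 8 of 8 pairs was seen in 1.66% of all genes in KO Treg and in 4.36% in WT Treg.

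Ccl3 and Ccl4, neighbouring inflammatory chemokine genes, had values near those of Xcl1. Ccl3 differences ran from -1.42 to 0.11 (median -0.40, lower in 7 of 8 pairs) in KO Treg and from -2.28 to 0.14 (median -0.71, 7 of 8) in WT Treg. Their means were -0.54 ± 0.19 in KO Treg (adjusted p = 0.396) and -0.86 ± 0.19 in WT Treg (adjusted p = 0.0119). WT pair 3 was the lowest of all 16. Ccl4 differences ran from -1.31 to 0.056 (median -0.16, lower in 7 of 8) in KO Treg and from -1.76 to -0.092 (median -0.49, 8 of 8) in WT Treg. The means were -0.44 ± 0.17 in KO Treg (adjusted p = 0.410) and -0.75 ± 0.17 in WT Treg (adjusted p = 0.0136). Being lower in at least 7 of 8 pairs was seen in 7.99% of all genes in KO Treg and in 13.3% in WT Treg.

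Ccl1 and Ccl20 had the highest adjusted p of the 5 called genes. Ccl1 differences ran from -1.29 to 0.11 (median -0.45, lower in 6 of 8) in KO Treg and from -1.83 to 0.075 (median -0.36, 7 of 8) in WT Treg. The means were -0.46 ± 0.17 in KO Treg (adjusted p = 0.402) and -0.58 ± 0.17 in WT Treg (adjusted p = 0.0445). The WT call of Ccl1 was lost without any 1 of WT replicates 1, 2, 3, 7 and 8 (-0.63 to -0.40, adjusted p 0.0652 to 0.153) or of KO replicates 2, 5, 7 and 8 (adjusted p 0.0510 to 0.0541), with array weights (-0.38, adjusted p = 0.0889) and with the probe set of highest SD for each gene (adjusted p = 0.0525). Ccl20 differences ran from -0.24 to 0.13 (median -0.10, lower in 5 of 8) in KO Treg and from -1.28 to 0.15 (median -0.32, 7 of 8) in WT Treg. All 8 KO pairs of Ccl20 lay close to 0, with an SD of 0.14, against 0.46 over the WT pairs. The means were -0.050 ± 0.11 in KO Treg (adjusted p = 0.900) and -0.44 ± 0.11 in WT Treg (adjusted p = 0.0263). The fit shares its estimate of spread between the genotypes, so this SE and p do not measure the wider WT spread alone. The WT call of Ccl20 was lost without WT replicate 1, 2 or 3 (-0.40 to -0.31, adjusted p 0.0673 to 0.102) and with array weights (-0.26, adjusted p = 0.110).

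Ccl22, Cxcl10 and Ccl5 were called in neither genotype. Ccl22 differences ran from -0.86 to 1.12 in KO Treg and from -1.24 to 0.16 in WT Treg, and the means were -0.046 ± 0.17 in KO Treg and -0.44 ± 0.17 in WT Treg (adjusted p = 0.134, lower in 7 of 8). Cxcl10 differences ran from -0.95 to 0.38 in KO Treg and from -0.70 to 0.56 in WT Treg, with means of -0.10 ± 0.13 in KO Treg and -0.17 ± 0.13 in WT Treg. Ccl5 was the only 1 of the 8 with a mean above 0, at 0.042 ± 0.13 in KO Treg and 0.11 ± 0.13 in WT Treg. Its WT pairs spread from -0.88 to 0.83, with 5 of 8 higher.

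**Figure D2:**
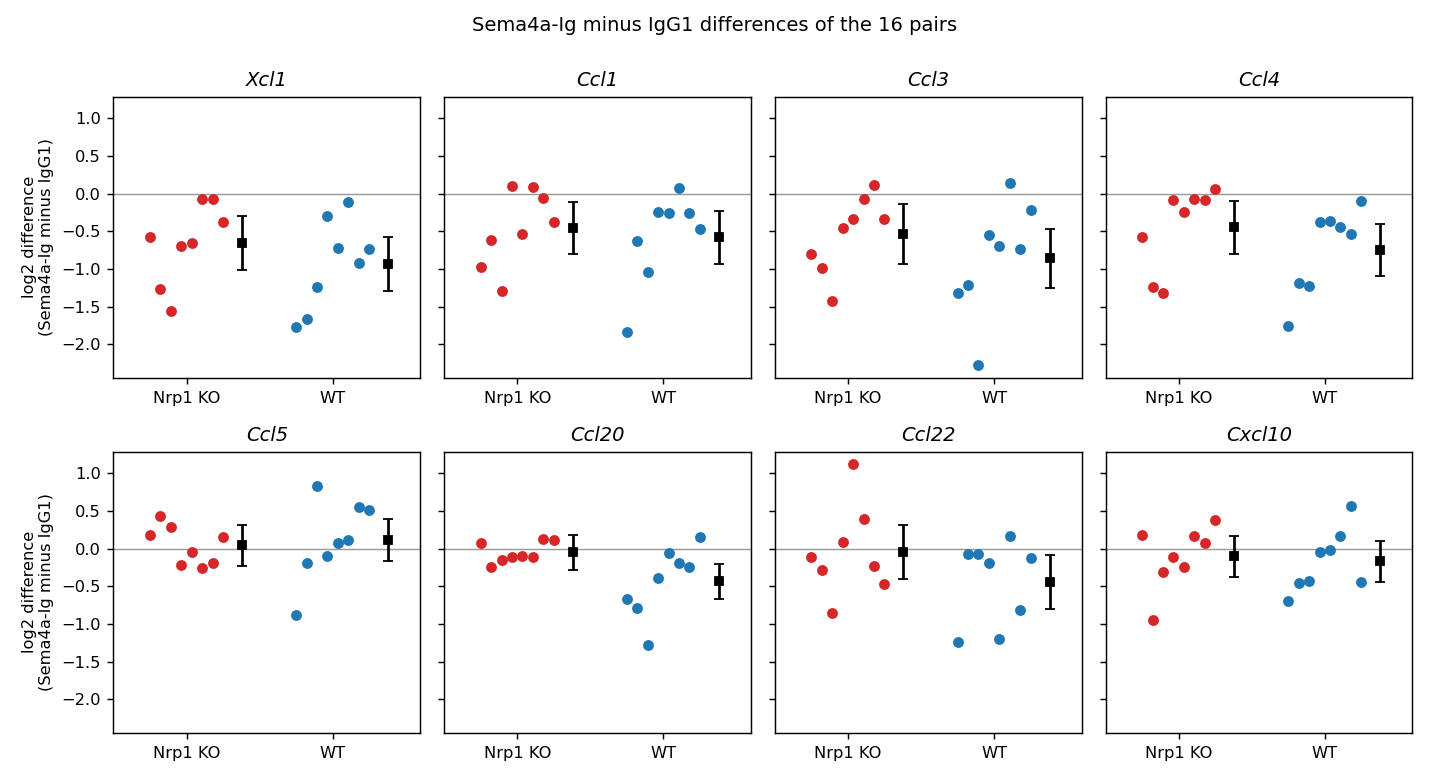
Log2 difference Sema4a-Ig minus IgG1 of each ligand gene, with the 8 Nrp1 KO pairs (red) left of the 8 WT pairs (blue) in order of replicate number, and a black square with a bar at the mean and its 95% confidence interval. All Xcl1 points of both genotypes lie below 0, and the KO points of Ccl20 lie between -0.24 and 0.13.

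The difference between the genotypes was tested directly. For KO minus WT, 0 of 8 ligand genes and 0% of all genes were called, and 1 of the 8 had an unadjusted p under 0.05, where 5.94% of all genes did. That gene was Ccl20, at 0.38 with a 95% interval from 0.056 to 0.71 (adjusted p = 0.828). The other KO minus WT differences were 0.28 for Xcl1 (interval -0.22 to 0.78), 0.12 for Ccl1 (-0.37 to 0.62), 0.32 for Ccl3 (-0.24 to 0.88), 0.30 for Ccl4 (-0.19 to 0.80), -0.071 for Ccl5 (-0.46 to 0.32), 0.40 for Ccl22 (-0.11 to 0.91) and 0.067 for Cxcl10 (-0.32 to 0.45). The intervals of Xcl1, Ccl3 and Ccl4 hold 0 and reach 0.78 to 0.88, close to the size of the WT effect of each. A call in WT Treg and none in KO Treg is therefore not a shown difference between the genotypes for these genes.

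**Figure D3:**
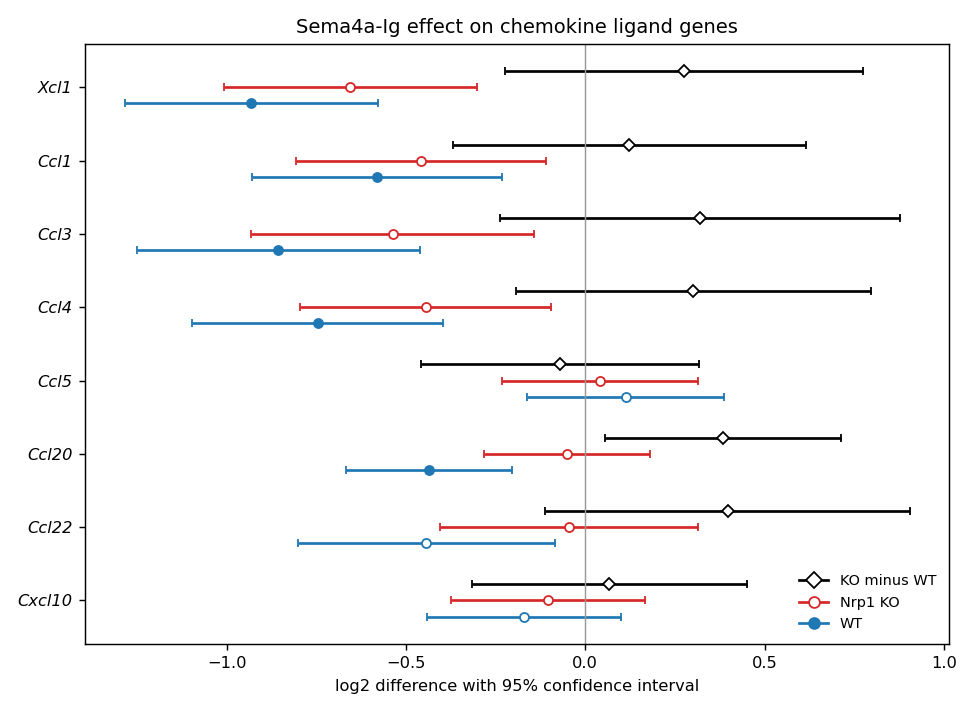
Mean log2 effect of Sema4a-Ig on each ligand gene with its 95% confidence interval, with KO minus WT as black diamonds above Nrp1 KO in red and WT in blue. Filled symbols, with an adjusted p under 0.05, are the WT values of Xcl1, Ccl1, Ccl3, Ccl4 and Ccl20, and the KO minus WT interval of Ccl20 (0.056 to 0.71) lies above 0.

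The pairs were not alike. The median over the 8 genes was -0.34, -0.78 and -1.08 in KO pairs 1, 2 and 3 and lay between -0.24 and -0.065 in KO pairs 4 to 8. In WT Treg it was -1.28, -0.71 and -1.13 in pairs 1, 2 and 3 and between -0.39 and 0.093 in pairs 4 to 8. WT pair 1 was the lowest WT pair for 6 of the 8 genes, and KO pair 3 the lowest KO pair for 5. The same pairs had the widest differences over all genes, with an SD of 0.34 to 0.47 in KO pairs 1 to 3 and 0.21 to 0.32 in KO pairs 4 to 8, and of 0.34 to 0.50 in WT pairs 1 to 3 and 0.25 to 0.30 in WT pairs 4 to 8. With each pair scaled to the same SD, the same 5 genes were called in WT Treg, Xcl1 at -0.87 (adjusted p = 0.000640) and Ccl20 at -0.36 (adjusted p = 0.0223) among them, and none in KO Treg or for KO minus WT. Without WT replicate 1 or 2, 3 of the 8 genes were called in WT Treg, and without replicate 3, 2 were (Xcl1 and Ccl3). Xcl1 and Ccl3 kept their calls without any 1 pair.

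**Figure D4:**
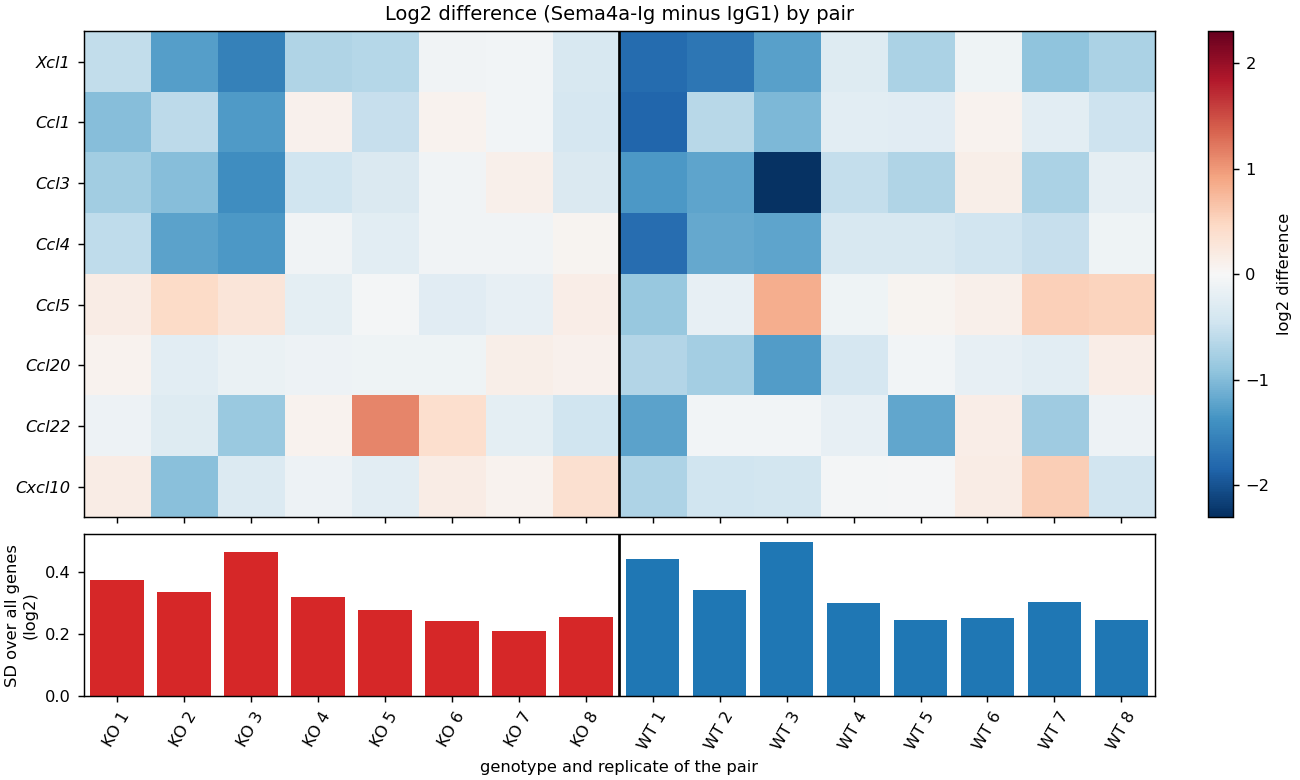
Upper panel, log2 difference Sema4a-Ig minus IgG1 of the 8 ligand genes (rows) in 8 KO pairs and 8 WT pairs (columns, KO left), from blue (lower on Sema4a-Ig) to red (higher). Lower panel, SD of the difference over all genes in each pair, which is 0.34 to 0.50 in pairs 1 to 3 of both genotypes. In these pairs the median over the 8 genes is lowest within each genotype. Single genes depart from this, such as Ccl5 in WT pair 3 (0.83) and Ccl22 in WT pair 5 (-1.20).

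Across the 16 pairs the ligand genes varied with Xcl1 to different degrees. Pearson's r with Xcl1 was 0.88 for Ccl4, 0.81 for Ccl3, 0.78 for Ccl1, 0.67 for Cxcl10, 0.59 for Ccl20, 0.43 for Ccl22 and -0.00492 for Ccl5. Ccl4 ranked 22 and Ccl3 123 by r with Xcl1 among 8547 genes above the median level. Ccl20 was closer to Ccl3 (r = 0.79) than to Xcl1. For Ccl5 and Xcl1, r was -0.75 within KO pairs and 0.35 within WT pairs, and the 2 values were not tested against each other. WT pair 1 was the lowest WT pair for both genes (-1.77 for Xcl1 and -0.88 for Ccl5), and it weighs on the WT value. Among other genes, the 5 most like Xcl1 were Psme3 (0.96), Znrd2 (0.94), Spry1 (0.93), Pbdc1 (0.92) and Rps27l (0.91), and the 5 most like Ccl3 were Umps (0.93), Irf8 (0.91), Tns1 (0.91), Cyb5b (0.91) and Eif1ax (0.91). These values describe 16 pairs that share the difference in spread given above.

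Among the receptors, Ccr8 was the 1 of 8 called on Sema4a-Ig, in WT Treg. Its mean signal was 6.14 on Sema4a-Ig and 6.64 on IgG1 in KO Treg, and 5.94 on Sema4a-Ig and 6.84 on IgG1 in WT Treg. The differences were -0.50 ± 0.16 in KO Treg (adjusted p = 0.378) and -0.91 ± 0.16 in WT Treg (adjusted p = 0.00253), and KO minus WT was 0.41 (adjusted p = 0.854). Ccl1 and its receptor gene Ccr8 were thus both called lower in WT Treg, with the Ccl1 call resting on single pairs as given above. The Ccl22 receptor gene Ccr4 (-0.14 ± 0.093 in KO Treg and -0.24 ± 0.093 in WT Treg) and the Cxcl10 receptor gene Cxcr3 (0.22 ± 0.11 in KO Treg and 0.29 ± 0.11 in WT Treg) were not called.

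Of 27 other chemokine ligands measured, none was called in KO Treg and 1 was called in WT Treg. That gene was Pf4, a platelet chemokine gene, which rose by 0.86 ± 0.19 (adjusted p = 0.0100). Its IgG1 mean as deposited was 3.55, under the highest nonspecific control. The list had medians of -0.012 in KO Treg and 0.0084 in WT Treg. Of 23 genes induced by the T cell receptor, none was called in KO Treg and 7 fell in WT Treg, with 20 of 23 below 0 in both genotypes. The 4 largest falls in WT Treg were in Il3 (-0.48 in KO Treg and -1.02 in WT Treg), Irf8 (-0.46 in KO Treg and -0.92 in WT Treg), Ifng (-0.93 in KO Treg and -0.85 in WT Treg) and Csf2 (-0.77 in KO Treg and -0.75 in WT Treg). As deposited, Il3 averaged under the highest nonspecific control on Sema4a-Ig in both genotypes, so its signal was low and its falls may be understated. These group levels, like that of Pf4, mirror a mean shared by all pairs. They therefore do not place either genotype against the control. Il3, Csf2 and Ifng encode secreted cytokines and Irf8 a transcription factor. Ifng had as low a mean in KO Treg as in WT Treg without passing the test there (adjusted p = 0.376). Among 13 interferon-induced genes, the group that Cxcl10 belongs to, none was called in KO Treg and 5 rose in WT Treg, led by Ifit1 (0.78), Gbp3 (0.70), Ifit3 (0.65) and Gbp2 (0.45). Cxcl10 did not rise with them.

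Myeloid marker genes moved with the treatment in WT Treg. Of 16 markers, 5 were higher on Sema4a-Ig in KO Treg with none called, and 14 were higher in WT Treg with 3 called, Lyz2 (0.81), Tyrobp (0.39) and Ctss (0.37). The mean over the 16 was 4.55 to 4.89 on Sema4a-Ig and 4.48 to 4.82 on IgG1 in KO Treg, and 4.59 to 4.96 on Sema4a-Ig and 4.41 to 4.78 on IgG1 in WT Treg. Of the 16, 7 averaged under the highest nonspecific control in all 4 groups (Adgre1, Aif1, Cd14, Elane, Itgam, Lyz1 and Mpo), and the group means of the other 9 lay between 3.96 and 10.32. The part of myeloid cells in the ligand gene differences was not tested. With the myeloid difference of each pair as a covariate, 0 of 8 ligand genes were called in WT Treg. The estimates were then -0.82 for Xcl1 (adjusted p = 0.122), -0.64 for Ccl1, -0.76 for Ccl3, -0.72 for Ccl4 and -0.36 for Ccl20, and 19 genes in all were called in place of 990. The myeloid difference was 0.13, 0.22 and 0.44 in WT pairs 1, 2 and 3, which had the lowest ligand gene medians, and -0.19, -0.055, 0.22, 0.55 and 0.37 in WT pairs 4 to 8.

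CD8 T cells and natural killer cells also make Xcl1, Ccl3, Ccl4 and Ccl5. Of 11 of their markers, 9 were lower on Sema4a-Ig in both genotypes, with none called in KO Treg and 1 in WT Treg, Nkg7 (-0.52 ± 0.14, adjusted p = 0.0335). The mean over the 11 was 4.98 to 5.40 on Sema4a-Ig and 5.31 to 5.73 on IgG1 in KO Treg, and 5.17 to 5.39 on Sema4a-Ig and 5.32 to 5.54 on IgG1 in WT Treg. Of the 11, 3 averaged under the highest nonspecific control in all 4 groups (Klrb1c, Klrk1 and Ncr1), and the group means of the other 8 lay between 3.67 and 10.70. The part of such cells in the ligand gene differences was not tested. Of 9 B cell markers 1 was called in WT Treg (Cd79b, 0.35), of 6 platelet markers 1 (Pf4) and of the 9 MHC class II and dendritic cell markers none, and in KO Treg none of any list was. In the sorted arrays, B cell markers called against Tconv were higher in both Treg groups (2 of 9 in activated Treg, 3 of 9 in resting Treg), led by Cd79b (2.56 in activated Treg and 2.85 in resting Treg). Of 10 CD8 and NK markers, 2 were called lower and 1 higher in activated Treg than in Tconv. For resting Treg, 1 was called lower and none higher. Klrd1 was lower in both Treg groups, with log2 differences of -6.69 in activated Treg and -4.73 in resting Treg. No platelet marker was called there.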

How the data were processed

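Per the submitters' processing notes, the deposited log2 values were made by the authors with RMA and Partek 6.6, and any further step, such as the one that equalised the pair means, is not given in those sources. RMA leaves no depth or count, and the number of arrays limits the precision. Of 45101 and 45141 probe sets in the sorted and semaphorin-4a experiments, 34958 and 28898 were annotated to 1 gene, and the rest were left out. Each gene kept its probe set with the highest mean. Genes were tested with limma 3.58.1 in R 4.3.3 (two-sided), with Benjamini-Hochberg adjustment over all genes and a threshold of 0.05, on 8 sorted arrays in 1 fit (5 residual degrees of freedom) and on 16 pair differences in 1 fit (14). Pairs came from neighbouring title codes, and the identical pair means in the deposited values bore them out. The fits were also run on simulated data with independent errors of equal spread over arrays. That does not cover the unequal spread of the pairs, and the outcome is not given here.

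The members and gene lists were chosen with earlier results of these data known. All 8 members are named. From each other list the called genes with the largest differences are named, at most 4 in each direction per comparison, and all receptors may be named. Outside this rule, Foxp3, Ikzf2 and Ctla4 are named to check the labels, and marker genes under the control level are named in full, chosen after their values were seen. The genes most like Xcl1 and Ccl3 are the 5 with the highest Pearson r. The lists are other chemokine ligands, receptors, genes induced by the T cell receptor or by interferon, and myeloid, dendritic cell, B cell, CD8 and NK, platelet and T cell markers. In the last list, 5 of 9 were higher in both Treg groups than in Tconv, led by Foxp3, Ikzf2, Il2ra and Ctla4, and Ikzf2 and Nrp1 rose on Sema4a-Ig in WT Treg.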

Additional observations from a re-analysis of the deposited data

How the results depend on the processing

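Between activated and resting Treg, 0 of 8 genes were called under every alternative run (leaving out each array, RNA integrity class, array weights, variance model, level filter, other probe set, quantile normalization). For resting Treg against Tconv, leaving out 1 array gave 0 to 2 of 8, and testing only genes above the median level, which keeps 1 of the 8, gave 1. For activated Treg against Tconv, leaving out 1 array gave 0 to 2, with 0 without either Tconv array. It gave 1 with the RNA integrity class as a block, 0 on arrays under 4 alone, 1 above the median level and 1 with the probe set of highest SD. Over all genes, 135 were called between activated and resting Treg, against 12 to 168 without 1 array (12 without activated replicate 1, 34 without resting replicate 2, 36 without either Tconv array, 67 without activated replicate 3 and 90 without activated replicate 2), 318 with the class as a block, 24 on arrays under 4, 957 with array weights, 76 with the probe set of highest SD and 216 after quantile normalization. For resting Treg against Tconv 1003 were called, against 242 and 288 without 1 or the other Tconv array, 1633 with the class as a block and 3005 with array weights. For activated Treg against Tconv 1765 were called, against 433 and 565 without 1 or the other Tconv array, 1127 without activated replicate 2, 873 on arrays under 4 and 5894 with array weights. In WT Treg leaving out 1 pair gave 2 to 5 of 8, array weights gave 3 and the myeloid covariate gave 0; over all genes 990 were called, against 258 without WT replicate 3, 413 without WT replicate 7, 538 without WT replicate 1, 4417 with no replicate block, 1654 above the median level, 621 with the probe set of highest SD and 19 with the myeloid covariate. The fit with no replicate block takes paired arrays as independent. It called 4 of 8 in KO Treg (Xcl1, Ccl1, Ccl3 and Ccl4), 6 in WT Treg and 0 for KO minus WT, and over all genes 1734 in KO Treg and 530 for KO minus WT, against 0 of each with the block. Scaling each pair to the same SD was chosen after seeing the data. Where a call changed, the cause was not tested.

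The direction turned only for differences that were not called. For activated minus resting Treg, Ccl3 was -0.15 on arrays under 4, -0.062 with array weights and -0.010 after quantile normalization, and with the class as a block Ccl5 was 0.024 and Ccl22 0.062. For activated Treg minus Tconv, array weights gave 0.10 for Xcl1 and -0.086 for Ccl22, arrays under 4 gave -0.016 for Ccl1 and -0.094 for Ccl4, quantile normalization gave -0.026 for Ccl1 and the class block -0.024 for Ccl4. For Ccl5 on Sema4a-Ig, KO Treg gave -0.040 with the Actb covariate and -0.033 with array weights, WT Treg -0.015 with the myeloid covariate, and KO minus WT 0.067 with it. Ccl22 in KO Treg was 0.032 with array weights. Leaving out 1 array or pair at a time spanned, for activated minus resting Treg, -0.11 to 0.12 for Ccl3, -0.76 to 0.34 for Ccl5 and -0.64 to 0.42 for Ccl22. For resting Treg minus Tconv it spanned -0.26 to 0.12 for Ccl3 and -0.25 to 0.82 for Ccl22. For activated Treg minus Tconv it spanned -0.21 to 0.013 for Xcl1, -0.023 to 0.24 for Ccl1 and -0.22 to 0.16 for Ccl3. In KO Treg it spanned -0.014 to 0.084 for Ccl5, -0.21 to 0.071 for Ccl22 and -0.17 to 0.018 for Cxcl10, and for KO minus WT -0.056 to 0.24 for Ccl1, -0.21 to 0.032 for Ccl5 and -0.0085 to 0.19 for Cxcl10.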
